A study of Mus musculus with 2 samples.

Results

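The 10 genes described here encode angiogenic factors and their receptors. They are the vascular endothelial growth factors Vegfa, Vegfb and Vegfc, the placental growth factor Pgf, the angiopoietins Angpt1, Angpt2 and Angpt4, the angiopoietin-like Angptl2, and the VEGF receptors Flt1 and Kdr. They were taken by symbol from a table of 46095 genes, and all 10 symbols were found. C3H10 (C3H/10T1/2) cells are mouse mesenchymal cells of embryonic origin that can turn into adipocytes in culture. An antisense oligonucleotide (ASO) pairs with an RNA and leads to its cleavage. RNA-seq compared 1 library of C3H10 cells that received an ASO against the long noncoding RNA MALAT1 with 1 library that received the negative control ASO, to see which genes depend on MALAT1 during adipogenesis. Both ASOs were used at 100 nM, before induction with isobutylmethylxanthine, dexamethasone, troglitazone and insulin and a change to insulin alone after 2 days, and the study's text places the RNA at day 6. The labels give the strain as C57BL/6, although the line is known to derive from C3H mouse embryos. Both groups are cultures of the same line under the same transfection, untransfected cells were not analysed here, and the study designed more than 1 ASO against MALAT1 without naming the one that was sequenced.

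VEGF ligands bind receptor tyrosine kinases on endothelial cells. Vegfa binds Flt1 and Kdr, and Kdr carries most of its growth signal, while Vegfb and Pgf bind Flt1, which holds ligand tightly and signals weakly, and Vegfc binds Flt4 and Kdr. Angpt1 activates the receptor Tek and steadies vessels, and Angpt2 can counter it. Adipose tissue is rich in capillaries, and fat cells are a known source of Vegfa, whose transcription rises when oxygen is low.

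The control library held 58147539 counts and the MALAT1-knockdown library 61653549, and the 17356 genes whose counts in both libraries came to 10 or more were tested. Levels in counts-per-million (CPM) are counts divided by the library size after TMM scaling, and the log2 fold change is the MALAT1-knockdown library minus the control library with a prior count of 0.5. Each fold change carries a 95% Clopper-Pearson interval that covers counting error only. With 1 library per group there is no replicate check, so the intervals and the exact tests compare these libraries and not the conditions. Malat1 had 170402 counts in the control library and 45396 in the knockdown library, a log2 fold change of -2.01, which left 24.7% of the control level. Fibroblast genes such as Fn1 (279976 and 307255 counts) and adipocyte genes such as Fabp4 (151625 and 63240 counts) were abundant in both libraries. The 15 adipocyte markers together came to 9245 CPM with the control ASO and 3703 CPM with the MALAT1 ASO.

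None of the 8 genes that could be tested lay past the 2-fold line. Of these 8, 0 were 2-fold lower, where 6.02% of all tested genes were, and 0 were 2-fold higher, where 3.83% were. Past a 1.5-fold line the counts were also 0, against 11.9% of tested genes lower and 8.28% higher. Vegfa lay farthest from 0, at 71.1% of its control level, and Vegfc and Angpt2 lay farthest in the other direction, at 126% and 124%. Kdr and Angpt4 had too few counts to be tested.

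The promoters of Vegfa, Flt1 and Kdr are printed because Vegfa had the largest difference and the levels of the receptors Flt1 and Kdr stood far apart. Each is the 250 bases before the start of transcription, 5′ to 3′ on the gene's strand, from RefSeq's GRCm38.p6, and capitals mark the GC box GGGCGG on either strand. Vegfa lies at chr17:46032378-46032627, Flt1 at chr5:147726012-147726261 and Kdr at chr5:75978456-75978705, all on the minus strand.
Vegfa: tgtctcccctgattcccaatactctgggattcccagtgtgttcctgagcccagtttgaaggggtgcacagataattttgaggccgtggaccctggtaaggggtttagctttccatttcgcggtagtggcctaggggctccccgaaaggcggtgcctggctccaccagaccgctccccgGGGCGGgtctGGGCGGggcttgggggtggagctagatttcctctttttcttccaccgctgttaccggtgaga
Flt1: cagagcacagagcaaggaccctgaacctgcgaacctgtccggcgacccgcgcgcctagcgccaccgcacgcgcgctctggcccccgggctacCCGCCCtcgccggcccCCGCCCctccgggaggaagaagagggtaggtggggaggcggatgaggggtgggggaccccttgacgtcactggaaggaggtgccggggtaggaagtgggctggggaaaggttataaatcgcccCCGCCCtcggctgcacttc
Kdr: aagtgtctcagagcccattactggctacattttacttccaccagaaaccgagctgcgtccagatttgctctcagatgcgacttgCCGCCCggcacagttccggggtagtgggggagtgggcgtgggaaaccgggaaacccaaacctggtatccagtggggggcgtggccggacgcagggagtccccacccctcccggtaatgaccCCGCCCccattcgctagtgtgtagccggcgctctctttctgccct

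The promoter table held 8 of the 10 genes, and Angpt1 and Angpt2 had no entry. All 8 windows contained GGGCGG, which the zinc finger factor Sp1 recognises, between 1 match in Angpt4 and 4 in Vegfb. The motif was present in 33.0% of all 27025 promoter windows and in 75.6% of the 7999 that were at least as GC-rich as the least GC-rich member, Vegfa, at 59.2%. The core of the hypoxia response element, ACGTG or GCGTG, was found in 5 of the 8 windows against 38.6% of all windows. All of its matches in the 8 windows were GCGTG. These windows were 59.2% to 76.4% GC against a median of 52% for all windows, and no GC-matched share was taken for this core. The core was present in both Flt1 and Kdr and not found in the Vegfa window, and bases farther upstream were not searched. The TEAD motif GGAATG was found in 0 of the 8 windows, and in 12.6% of all windows. The PPAR-type direct repeat DR1 was found in 0 of the 8, and in only 11 of all 27025 windows (0.0407%). Each motif was searched on both strands, and a match or its absence describes these letters only.

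**Figure D1:**
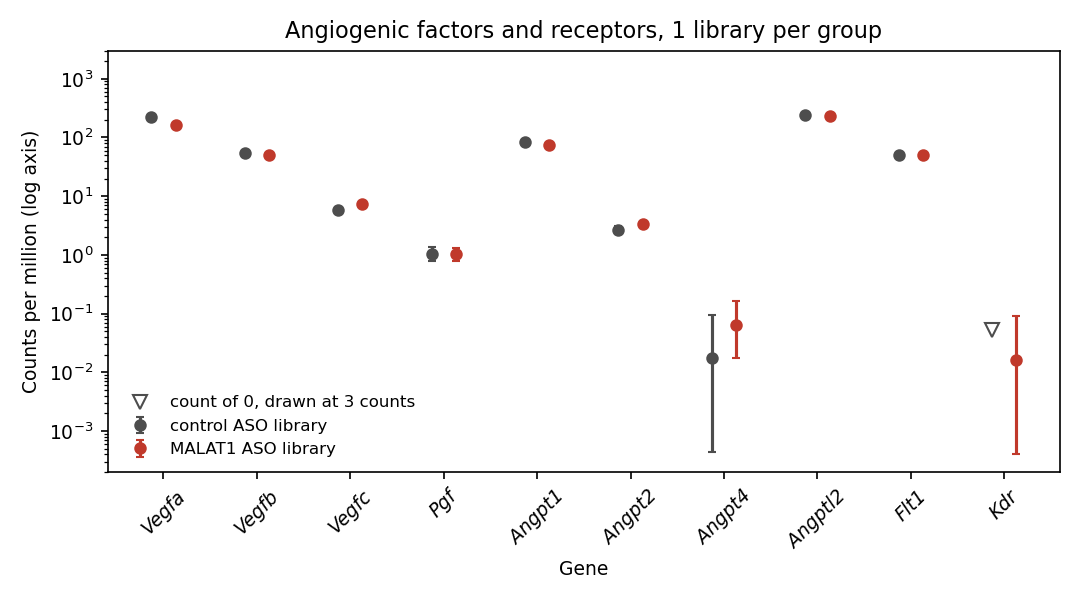
CPM of the 10 genes (log axis) in the control ASO library (grey) and the MALAT1 ASO library (red), with 95% Poisson limits. Vegfa, Angptl2, Angpt1, Vegfb and Flt1 sit at or above 50 CPM in both libraries, while Angpt4 and Kdr sit under 0.1 CPM, with the count of 0 for Kdr drawn at the level of 3 counts, 0.0520 CPM.

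The genes spanned a wide range of levels, and their order per transcript length was the same in both libraries. Levels of different genes are compared as CPM per kilobase of the gene's longest transcript in GENCODE M21, which is on the authors' build, GRCm38. In the control library Angptl2 was highest at 68.6 CPM per kilobase, followed by Vegfa at 65.7, Vegfb at 42.2, Angpt1 at 19.3, Flt1 at 7.29 and Vegfc at 2.36. Angpt2 at 0.759 and Pgf at 0.500 came next, before Angpt4 at 0.00742 and Kdr at 0. The counting intervals of neighbours in this order overlapped only for Angpt4 and Kdr. The order of Angptl2 and Vegfa turned with the median transcript length in place of the longest, since Vegfa has 13 annotated transcripts of unequal length. Angptl2 and Vegfa stood above 94.1% and 93.8% of the 15288 tested genes with a length, and Pgf above 19.3%.

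Among the VEGF ligands, Vegfa was the most abundant in both libraries and lay farthest from 0. Vegfa (GRCm38 chromosome 17, 46016993 to 46032369, minus strand) had 13084 counts or 227 CPM in the control library and 10012 counts or 161 CPM in the MALAT1-knockdown library. The control library was thus the higher, with a log2 fold change of -0.49 (95% counting interval -0.53 to -0.45). The two-sided exact binomial test of these libraries gave an adjusted p of 2.11e-145. That p rests on counting error alone. If cultures varied with a biological coefficient of variation of 0.1, edgeR's exact test gave an unadjusted p of 0.0166 and an adjusted p of 0.157, and with 0.2 the unadjusted p was 0.231. Among the 8251 genes with a mean of at least 1000 counts, 3.96% had a lower fold change than Vegfa, and 6.16% lay at least as far from 0 in either direction. The nearest tested genes on either side, Mrpl14 at 318 kb and Mrps18a at 78.6 kb, had log2 fold changes of -0.02 and -0.37.

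Vegfb, which acts mainly through Flt1, lies on chromosome 19 from 6982473 to 6987651. It had 3122 counts in the control library and 3155 in the knockdown library, or 54.1 and 50.8 CPM, a log2 fold change of -0.09 (-0.16 to -0.02). This interval reached 0 when library totals were used for scaling (-0.14 to 0.00). Vegfc (chromosome 8, 54077606 to 54187096), a ligand best known for the growth of lymphatic vessels, had 333 and 452 counts. Its level went from 5.77 to 7.28 CPM, a log2 fold change of 0.33 (0.13 to 0.54), with an adjusted p of 0.00363 in the exact binomial test of these libraries. Of the 3888 genes with a mean of 100 to 1000 counts, 33.5% lay at least as far from 0 as Vegfc. Pgf (chromosome 12, 85166635 to 85177790), a Flt1 ligand first found in placenta, was low, with 60 and 64 counts and a log2 fold change of -0.01 (-0.54 to 0.52).

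Vegfd, the remaining VEGF ligand and a relative of Vegfc, had 3296 counts in the control library and 4137 in the knockdown library, a log2 fold change of 0.22 (0.15 to 0.29). Per kilobase, Vegfa made up 47.4% of the summed level of these 5 ligands in the control library and 38.2% in the knockdown library. Vegfd went from 20.1% to 26.6% and Vegfb from 30.5% to 32.4%, while Vegfc (1.70% and 2.43%) and Pgf (0.360% and 0.405%) were minor in both. With the median transcript length the share of Vegfa was 72.9% and 64.3%, so the size of its share depends on the transcript length assumed and its direction does not.

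**Figure D2:**
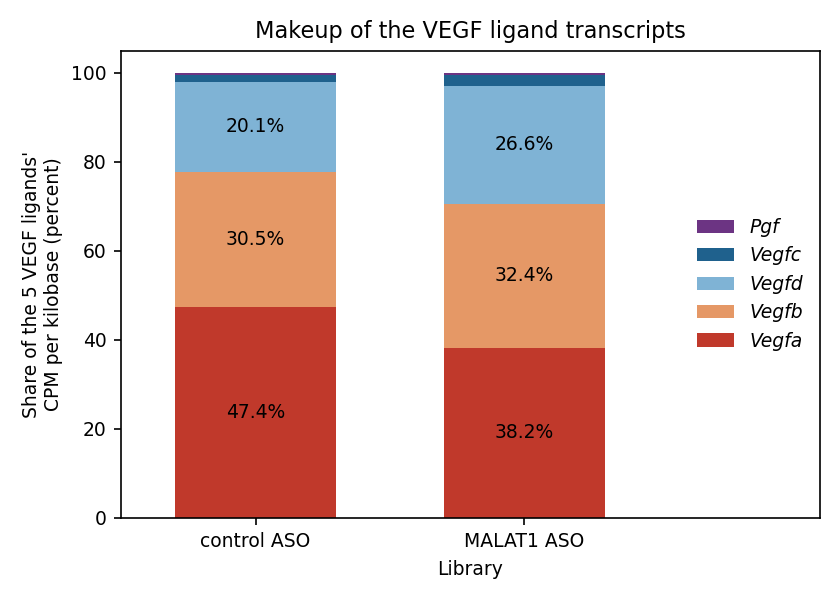
Share of each VEGF ligand (percent) in the summed CPM per kilobase of Vegfa, Vegfb, Vegfc, Vegfd and Pgf, by library. The Vegfa segment is 47.4% in the control ASO library and 38.2% in the MALAT1 ASO library, and the Vegfd segment 20.1% and 26.6%.

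The angiopoietins were led by Angpt1. Angpt1 (chromosome 15, 42424723 to 42676977, minus strand) had 4740 counts in the control library and 4711 in the knockdown library, or 82.1 and 75.8 CPM, a log2 fold change of -0.12 (-0.17 to -0.06). In GENCODE M21, 14.2% of its exon bases are shared with an antisense gene, Gm17473, which is not analysed here, and the strand setting of the counting is not given in the sources used here. Angpt2 (chromosome 8, 18690263 to 18741562, minus strand) had 156 and 209 counts, or 2.70 and 3.36 CPM, a log2 fold change of 0.31 (0.01 to 0.62). The interval left out 0, but the exact binomial test gave an adjusted p of 0.0783. Per kilobase, the knockdown library held 17.8 CPM of Angpt1 and 0.945 CPM of Angpt2. Angpt4 (chromosome 2, 151911210 to 151945337), a further Tek ligand, had 1 count in the control library and 4 in the knockdown library, a ratio of 3.72 with a counting interval from 0.368 to 183. A difference in Angpt4 was not detectable at this depth.

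Angptl2 (chromosome 2, 33216069 to 33247717, plus strand) is a secreted relative of the angiopoietins that does not bind Tek and is made by fat cells. It had the most counts of the 10 genes, 14088 in the control library and 14233 in the knockdown library. Its level was 244 and 229 CPM, a log2 fold change of -0.09 (-0.13 to -0.06). Among genes with a mean of at least 1000 counts, 60.7% lay at least as far from 0.

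The receptors differed far more from each other than between the libraries. Flt1 (chromosome 5, 147561604 to 147726011, minus strand) had 2902 counts in the control library and 3184 in the knockdown library, or 50.3 and 51.2 CPM. Its log2 fold change was 0.03 (-0.05 to 0.10), and the counts per gene do not separate the membrane receptor from its shorter secreted form. Kdr (chromosome 5, 75932827 to 75978458, minus strand) had 0 counts in the control library and 1 in the knockdown library. The upper ends of the 95% Poisson limits were 0.0639 CPM for the control library and 0.0897 CPM for the knockdown library. Of the 10 protein-coding genes nearest to Kdr, 6 had at least 100 counts in the control library, against 52.4% of all protein-coding genes in the table. Pdgfra, the nearest tested gene on one side of Kdr, lay 735 kb away and had 28120.

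Other receptors of the VEGF and angiopoietin systems followed the same division. Flt4 and Tie1 had 0 counts in both libraries, and Tek had 23 and 19. The co-receptors Nrp1 and Nrp2, which bind VEGF ligands beside the kinase receptors, were well represented. Nrp1 had 17641 and 18625 counts and a log2 fold change of -0.03 (-0.06 to 0.00), and Nrp2 had 5620 and 6532 counts and a log2 fold change of 0.11 (0.06 to 0.16). Per kilobase Nrp1 stood at 83.9 CPM in the control library, above each of the 10 genes when the longest transcripts were used.

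**Figure D3:**
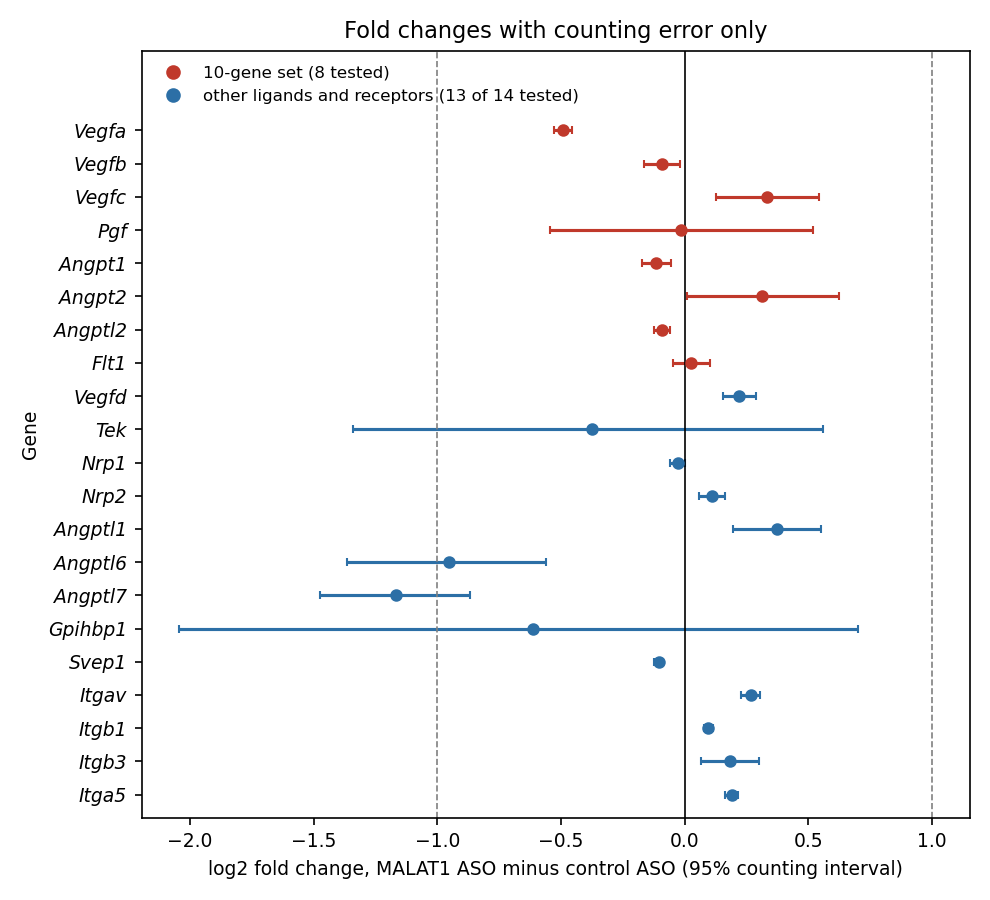
Log2 fold change (MALAT1 ASO minus control ASO) with its 95% counting interval for the 8 tested members (red) and 13 of the 14 other tested ligands, receptors, integrins and associated proteins (blue). Vtn is left out because its interval has no lower end. Dashed lines mark 2-fold, and the interval of Vegfa, -0.53 to -0.45, lies to the left of those of the other members except Pgf.

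Read against all genes, the set did not stand far out. By counting error alone, 4 of the 8 tested genes were lower (Vegfa, Vegfb, Angpt1 and Angptl2), where 26.4% of all tested genes were, and 2 were higher (Vegfc and Angpt2), where 26.7% were. Of the 5 members with a mean of at least 1000 counts, the same 4 were lower, against 31.8% of genes at that depth, and 0 were higher, against 37.3%. Vegfb, Angpt1, Angptl2 and Flt1 had values between -0.12 and 0.03, and the middle 50% of genes at that depth ran from -0.11 to 0.13. The median of the 8 genes was -0.05, and that of all tested genes was 0.00. With edgeR's exact test and a preset coefficient of variation of 0.1, 0.2 or 0.4, 0 of the 8 had an adjusted p under 0.05.

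**Figure D4:**
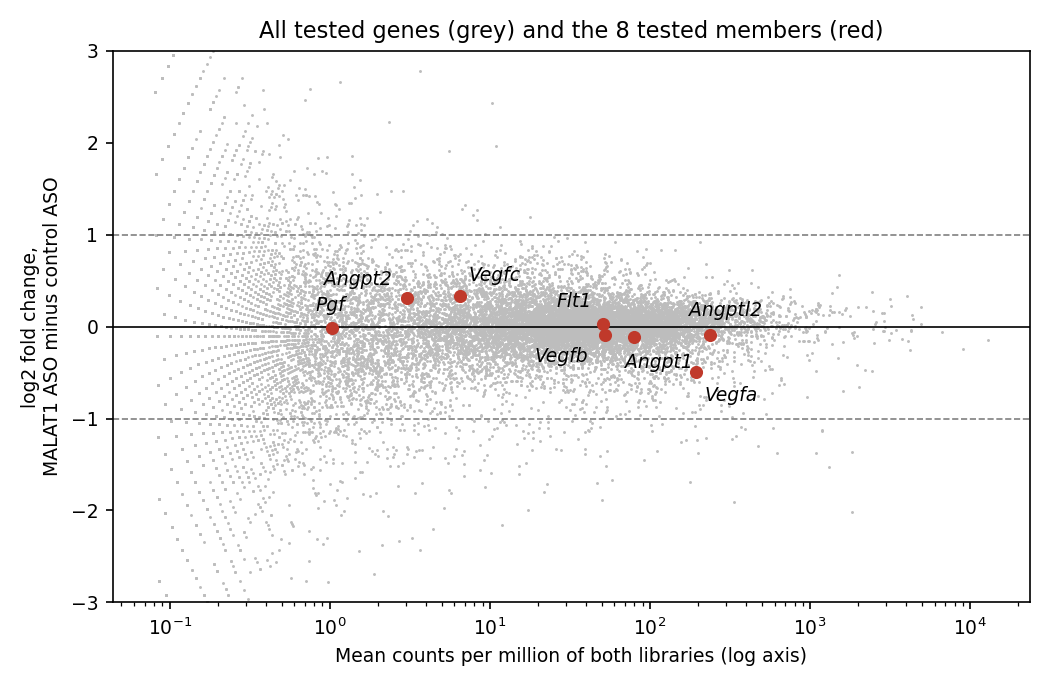
Log2 fold change (MALAT1 ASO minus control ASO) against the mean CPM of both libraries (log axis) for the 17356 tested genes (grey) and the 8 tested members (red), with dashed lines at 2-fold. The members lie between -0.49 (Vegfa) and 0.33 (Vegfc), and 153 genes beyond 3 on either side are outside the axis.

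The genes around the VEGF and angiopoietin systems were counted from lists written from general knowledge, with earlier results of these data known. Of 14 tested ligands, receptors, integrins and associated proteins outside the set, 7 were higher and 4 lower by counting error. The shares of all tested genes were 26.7% and 26.4%. The 14 had a median log2 fold change of 0.03. The 4 lower genes were Svep1, Angptl6, Angptl7 and Vtn. Of the 14, Vtn and Angptl7 were 2-fold lower, where 6.02% of all tested genes were, and 0 were 2-fold higher, where 3.83% were. Angptl7, a secreted angiopoietin-like protein, had 286 counts in the control library and 137 in the other, a log2 fold change of -1.17 (-1.47 to -0.87). Vtn, the matrix protein vitronectin, had 10 counts in the control library and 0 in the knockdown library. The 26 tested enzymes and adaptors downstream of Kdr had a median of 0.01, with 11 higher and 6 lower by counting error, against the same 26.7% and 26.4%. Most of the 26 had a mean of at least 1000 counts, and of all genes at that depth 37.3% were higher and 31.8% lower. Many genes of the lists that follow were at that depth too. Of the 26, 0 were past the 2-fold line, against 3.83% of all tested genes higher and 6.02% lower. Akt1, a kinase that passes on the growth signal, had a log2 fold change of 0.26 (0.23 to 0.29).

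Vegfa is itself a well known example of a gene induced by low oxygen, and the other genes of that kind were counted beside it. Of 21 tested hypoxia-induced genes, 17 were lower by counting error, where 26.4% of all tested genes were. The 21 had a median log2 fold change of -0.35 and ranged from -1.37 to 0.20. Vegfa, at -0.49, lay within this range, but so did Vegfb, Pgf, Angpt1, Angptl2 and Flt1, while Vegfc and Angpt2 lay above it. The range therefore does not tell Vegfa apart from most tested members, and a part of oxygen in its value was not tested. Of the 21, 3 were past the 2-fold line downward, where 6.02% of all tested genes were. The 3 were Ero1l (Ero1a), an oxidase of the endoplasmic reticulum, with 16652 and 6935 counts and a log2 fold change of -1.37 (-1.41 to -1.33), Ankrd37, with 837 and 416 counts, and the carbonic anhydrase Car9, with 155 and 78. The 2 higher genes, Adm and Cited2, are named after their values were seen, and had log2 fold changes of 0.20 and 0.05. The 9 tested genes of oxygen sensing had a median of -0.02, with 1 higher and 2 lower by counting error, against 26.7% and 26.4% of all tested genes. Past the 2-fold line there were 0, against 3.83% of all tested genes higher and 6.02% lower. Egln1, the prolyl hydroxylase that marks HIF for breakdown, was at -0.48 (-0.53 to -0.42), Vhl at -0.20 and Hif1a, named after its value was seen, at 0.14 (0.10 to 0.18).

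Growth factors of other families had a median log2 fold change of 0.18 over 19 tested genes, with 11 higher and 2 lower by counting error, against 26.7% and 26.4% of all tested genes, and 0 past the 2-fold line in either direction, against 3.83% higher and 6.02% lower. The intervals farthest from 0 were those of Efnb2, a membrane-bound ligand of Eph receptors, at 0.69 (0.58 to 0.80), and Fgf7, a fibroblast growth factor, at 0.52 (0.47 to 0.56). The 2 lower genes, Fgf2 and Cyr61 (Ccn1), are named after their values were seen, and were at -0.63 and -0.08. The 17 tested angiogenesis inhibitors had a median of 0.14, with 9 higher and 4 lower by counting error (Thbs1, Col18a1, Adamts1 and Spry4), against the same 26.7% and 26.4%. Sema3a, a semaphorin that competes with VEGF ligands for Nrp1, was the 1 inhibitor past the 2-fold line. It was higher, where 3.83% of all tested genes were, and 0 inhibitors were 2-fold lower, where 6.02% of all tested genes were. Sema3a had 357 counts in the control library, 774 in the other and a log2 fold change of 1.01 (0.83 to 1.19).

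**Figure D5:**
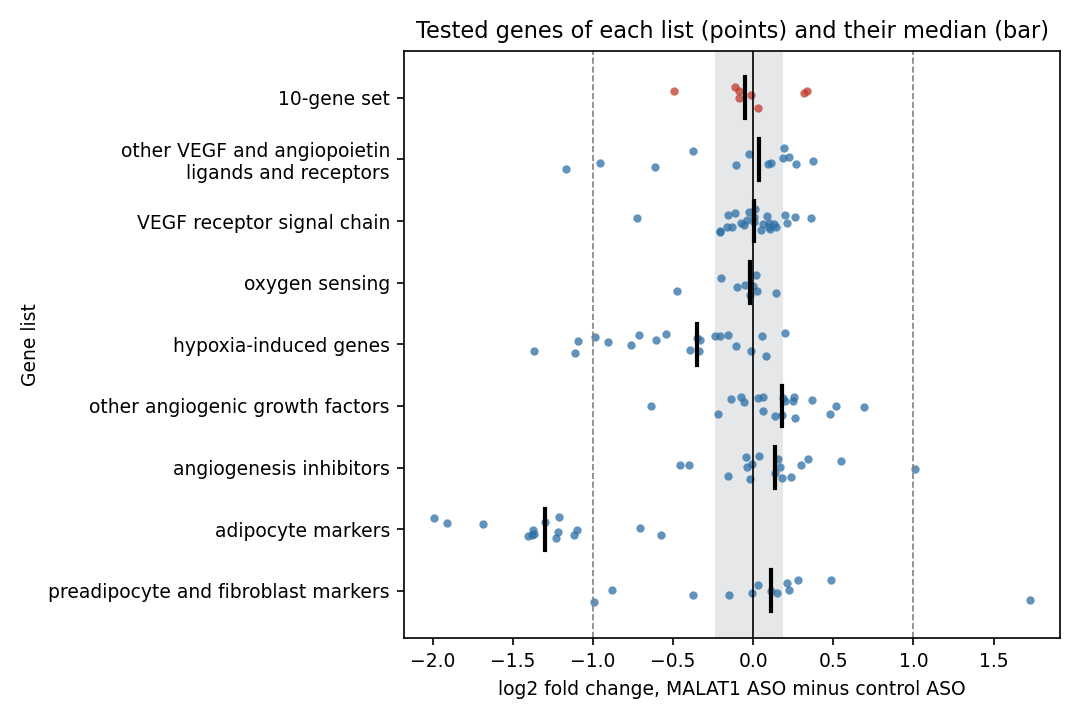
Log2 fold change (MALAT1 ASO minus control ASO) of each tested gene by list, with the median as a black bar, dashed lines at 2-fold and the middle 50% of all tested genes shaded (-0.23 to 0.18). Vtn lies outside the axis. The bars of the 10-gene set (-0.05), the oxygen sensing list (-0.02) and the signal chain list (0.01) are inside the shaded band, while hypoxia-induced genes (-0.35) and adipocyte markers (-1.30) are to its left.

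Markers of the cells in the culture moved with the libraries, and their part in the values above was not tested. Of 15 adipocyte markers, 13 were past the 2-fold line downward and 0 upward, against 6.02% and 3.83% of all tested genes. Their median was -1.30, and Gpd1 (-1.91) and Retn (-1.99) were among the 13. The marker nearest to 0, Pparg at -0.57, named after its value was seen, lay below each of the 8 tested members. Preadipocyte and fibroblast markers had a median of 0.11 over 13 tested genes. By counting error 8 were higher and 4 lower, against 26.7% and 26.4% of all tested genes. Fn1 was at 0.03, Col1a2 at 0.21 and Cd34, at 19 and 69 counts, at 1.73. The 4 lower genes, named after their values were seen, were Lum at -0.99 (1246 and 674 counts), Dcn at -0.88 (2247 and 1315 counts), Pi16 at -0.38 and Zfp423 at -0.15. In these bulk libraries fewer cells of a type and less RNA per cell cannot be told apart.

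Both libraries came from cultures of 1 mesenchymal line. Markers of endothelial cells, which carry Kdr, Flt1 and Tek in tissue, had few counts. Of 16 endothelial markers 6 had at most 3 counts in both libraries, namely Cdh5, Erg, Cldn5, Sox17, Robo4 and Tie1. The 16 together came to 59.0 CPM with the control ASO and 71.2 CPM with the MALAT1 ASO, of which Eng, also a TGF-beta co-receptor of mesenchymal cells, made up 49.6 and 63.3 CPM. Of the 9 tested, 3 were past the 2-fold line upward, against 3.83% of all tested genes. These 3, Esam (1 and 14 counts), Emcn (20 and 45) and Vwf (12 and 30), were sparse. Egfl7, the most abundant after Eng, was lower, with 310 and 193 counts and a log2 fold change of -0.79 (-1.06 to -0.53). Of 10 pericyte markers 8 were tested, with 4 higher and 4 lower by counting error, against 26.7% and 26.4% of all tested genes. The 4 lower were past the 2-fold line, where 6.02% of all tested genes were. Mcam went from 3233 to 1385 counts, and Kcnj8, Abcc9 and Ndufa4l2 had under 20 counts in each library. The 4 higher were Pdgfrb, also a fibroblast gene (28172 and 37790 counts), and Cspg4 (13363 and 14854). Notch3 (6994 and 7941) and Anpep (1637 and 2224), named after their values were seen, were the others. Of 8 macrophage markers, Ptprc, Adgre1 and Itgam had 0 counts in both libraries. Of the 4 tested, Lyz2 (7 and 25 counts) and Csf1r (3 and 13) were past the 2-fold line upward, against 3.83% of all tested genes. Of the most abundant macrophage markers, Cd14 was higher, with 362 and 536 counts, and Cd68 lower, with 172 and 119 counts and a log2 fold change of -0.64 (-0.99 to -0.29).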

How the data were processed

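The 10 genes and the gene lists were chosen with earlier results of these data known. The authors prepared rRNA-depleted, strand-specific total RNA libraries and deposited whole-number counts of reads per gene symbol, without normalization. The submitters' processing notes name HISAT2 and GRCm38. The counting tool, annotation, strand setting and treatment of reads with several matches are not given in the sources used here. No differential test is named for the RNA-seq data.

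From these counts, genes with at least 10 counts over both libraries were kept, library sizes were scaled by TMM (edgeR 4.0.16, R 4.3.3), and fold changes were computed with a prior count of 0.5. Clopper-Pearson and Poisson limits (95%) and the floor (3 counts, where none was seen) cover counting error only. The two-sided exact binomial test (scipy 1.17.1, Python 3.11.15) was adjusted by Benjamini-Hochberg over all 17356 genes, since 1 library per group leaves no spread for edgeR's quasi-likelihood test or DESeq2. The script was tested on simulated data. GENCODE M21, which held all 10 symbols and 88.3% of tested symbols, gave positions and lengths, and RefSeq (GRCm38.p6) gave promoters and the older symbols Ero1l, Cyr61 and Ctgf. The text names every member, Malat1 and, per list, up to 5 genes past the 2-fold line whose interval left out 0, or else the 2 farthest from 0, with the 2 most abundant markers per marker list. Exceptions are stated, and not every such gene is reported. No gene was chosen for likeness of pattern, since 2 libraries give none. Alternatives were other scalings (DESeq2 1.42.0), filters, a prior count of 2, a 1.5-fold line, preset variation and another transcript length.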

Additional observations from a re-analysis of the deposited data

How the results depend on the processing

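Each of the 8 tested members kept its direction and stayed inside its counting interval under every scaling, filter and prior count tried, except that Pgf, whose interval held 0, ranged from -0.02 to 0.01. Vegfa ranged from -0.49 to -0.47. Library totals moved the median of all genes from 0.00 to 0.02, and left 3 members in place of 4 lower by counting error, without Vegfb. The count of members past the 2-fold line stayed at 0, except that with every gene of at least 1 count it became 2, Angpt4 and Kdr, whose fitted values rest on 5 counts or fewer. With the median transcript length Vegfa ranked 1 and Angptl2 ranked 2. No paired analysis was possible because each group has 1 library. No replicate could be left out for the same reason.

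The filter moved lists with sparse genes. With at least 10 counts in each library, the median of the other ligands and receptors was 0.10 with 1 gene 2-fold lower, that of pericyte markers turned from -0.64 to 0.0752 with 1 gene 2-fold lower, and that of macrophage markers turned from 1.06 to -0.0900 with 0 genes 2-fold higher. With at least 1 count, the pericyte median turned to 0.0459 and 1 pericyte gene was 2-fold higher. Under the same filter 5 endothelial markers and 2 preadipocyte markers were 2-fold higher, as was 1 of the other ligands and receptors. Lower by 2-fold were then 2 growth factors, 1 endothelial marker and 1 gene each of the signal chain and of oxygen sensing. Fewer or more sparse genes tested is the construction of these filters. Over all genes, the counts past the 2-fold line upward and downward were 665 and 1045, against 180 and 427 under the stricter filter and 2774 and 3139 under the looser filter. The other recomputed values kept their direction.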

Other observations

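Angptl4, an angiopoietin-like inhibitor of lipoprotein lipase that fat cells are known to make, had 0 counts in the control library and 1 in the MALAT1-knockdown library. Its neighbours on chromosome 17 were also nearly empty. Kank3 had 0 and 2 counts, Rps28, which encodes a ribosomal protein used by every cell, had 10 and 10, Ndufa7, a subunit of respiratory complex I, had 4 and 1, and Cd320 had 5 and 2. These genes lie between 33810519 and 33849774 in GRCm38. Beyond them, Kifc1 had 50 and 81 counts, and on the other side of Angptl4 Rab11b had 2711 and 2037, March2 had 199 and 53, and Hnrnpm had 12114 and 14419. Rps28 has near-identical copies elsewhere in the genome, so its counts are uncertain. The counts of Angptl4 are given as listed and were not used for a level or a fold. Of the 10 protein-coding genes nearest to it, 3 had at least 100 counts in the control library. The same number was 8 for Vegfa, 9 for Vegfb, Pgf and Angptl2, 7 for Angpt1, 6 for Kdr, 4 for Flt1 and 3 for Vegfc, Angpt2 and Angpt4. The neighbours of Angptl4 were looked at after its count was seen.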
